A study of Homo sapiens with 6 samples.

Results

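The genes described here are 45 genes of glycolysis and of the hypoxia response, chosen by name: glucose and lactate transporters, glycolytic enzymes, the hypoxia-inducible factors with their oxygen sensors, and genes that low oxygen is known to induce. All 45 had a row among the 46287 rows of the count table, and 42 had enough reads to be tested, among 12293 tested genes. RNA was sequenced from 3 libraries of HaCaT cells carrying a homozygous SDR42E1 knockout made by CRISPR/Cas9, and from 3 libraries of wild-type HaCaT control cells, sampled at the same time. HaCaT is a human keratinocyte line that became immortal on its own in culture. Both groups grew as monolayers in high-glucose medium with glutamine, pyruvate and fetal bovine serum, and were harvested below full confluence; no low-oxygen treatment is named in the labels. The labels call the replicates biological but do not say whether the knockout cells are 1 clone or how cultures were kept apart, so the p-values rest on the spread of these libraries, which may be technical. In bulk RNA, fewer cells of a type and less RNA per cell cannot be told apart.

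In glycolysis, glucose enters through facilitative transporters, is trapped by hexokinase, split by aldolase and oxidised to pyruvate, which lactate dehydrogenase reduces to lactate for export. When oxygen is short, prolyl hydroxylases no longer mark the alpha subunits of the hypoxia-inducible factors (HIF) for removal by the VHL ubiquitin ligase. The factors then pair with ARNT and bind short DNA cores in or near many of the genes below, among them genes of nearly every glycolytic step. HIF activity is mainly set at the protein level, which RNA counts do not show.

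Libraries held 11504473 to 13454544 counts in knockout cells and 12094896 to 16928201 in control cells. SDR42E1 itself averaged 21.3 ± 1.61 CPM in knockout cells and 47.7 ± 1.02 CPM in control cells (SD, n = 3 each; log2 fold change -1.16, edgeR adjusted p = 2.69e-14), lower but still present. CPM are read counts relative to library size after scaling, and log2 fold changes are knockout over control. All 15 keratinocyte markers averaged above 1 CPM, and their summed level was 16009 to 16699 CPM in knockout libraries and 11901 to 12533 CPM in control libraries, with KRT5 lower (-0.66) and KRT6A higher (1.26). Of 8 fibroblast markers 2 averaged above 1 CPM, with PDGFRA, DCN and DPT at 0, and the list summed to 1.12 to 2.13 CPM in knockout and 4.30 to 6.19 CPM in control libraries. Melanocyte markers (2 of 7 above 1 CPM, TYR at 0) summed to 19.5 to 23.7 CPM in knockout and 24.3 to 25.2 CPM in control libraries, endothelial markers (2 of 6) to 1.92 to 2.81 CPM in knockout and 3.65 to 4.28 CPM in control libraries. Immune markers (1 of 8, with CD3E and CD3D among those at 0) summed to 8.31 to 10.2 CPM in knockout and 5.83 to 9.20 CPM in control libraries. The part of these marker differences in the results below was not tested. The 13 mitochondrially encoded messages summed to 3513 to 3673 CPM in knockout and 3841 to 4516 CPM in control libraries.

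Of the 25 tested genes of transport, glycolysis and pyruvate, 13 rose in knockout cells, among them SLC2A1, HK2, PKM and LDHA, while 4 fell and 8 did not pass. HK2 and the hypoxia-induced genes VEGFA, ADM, BNIP3, ANKRD37 and BHLHE40 rose by the most. Among the 42 tested genes, 23 rose, 6 fell and 13 did not pass an adjusted p of 0.05. The background is wide: 50.4% of all tested genes passed, 24.6% higher and 25.8% lower in knockout cells, against 54.8% and 14.3% of these 42. The median log2 fold change was 0.19 over the 42 genes and 0.00 over all tested genes. In 24 of the 42 every knockout library lay above every control library and in 7 every one lay below, where 56.5% of all tested genes did not overlap, 27.5% above and 29% below. Only HK2, VEGFA, ADM, BNIP3, ANKRD37 and BHLHE40 passed with a rise of at least 1.5-fold, and DDIT4 alone with such a fall. That is 14.3% and 2.38% of the 42, against 4.99% and 10.4% of all tested genes. These shares describe the list and are no test of it.

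**Figure D1:**
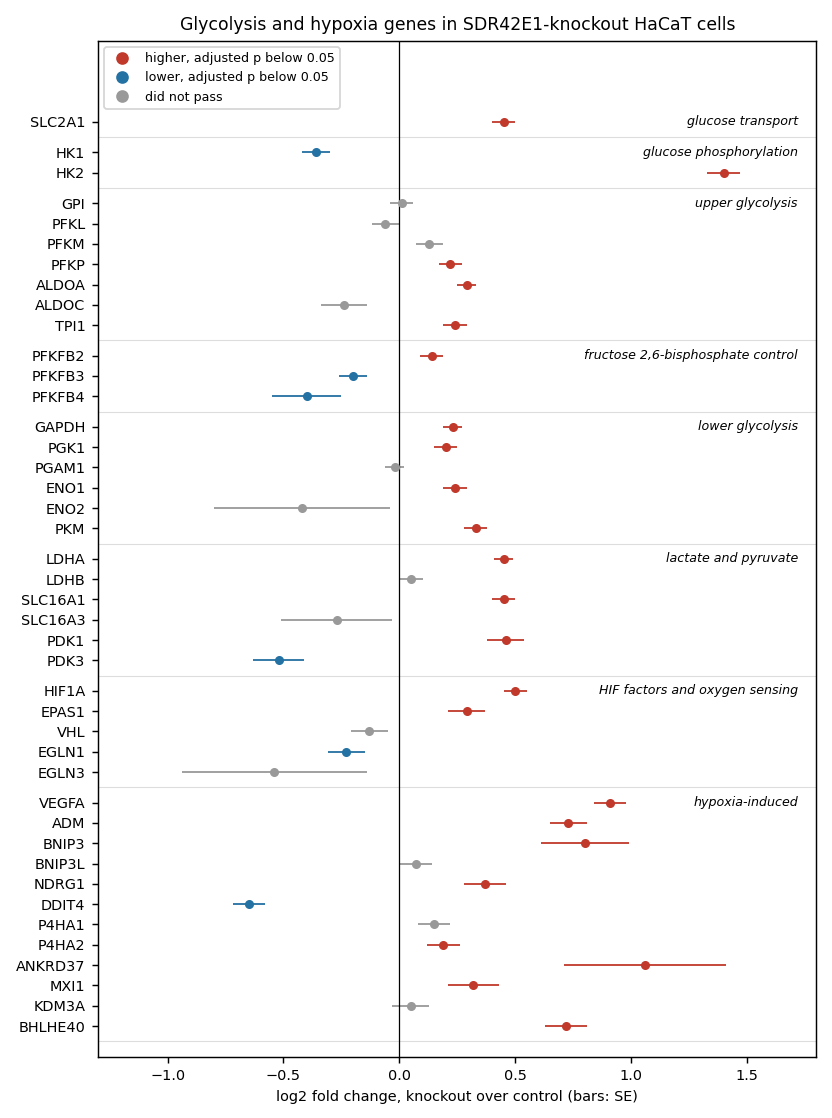
Log2 fold change (knockout over control) of the 42 tested genes, grouped by pathway role, with SE bars; colour marks genes that rose, fell or did not pass. HK2 lies farthest right at 1.40 and DDIT4 is the lowest gene that passed, at -0.65.

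To show the DNA beside the values, the 250 bases before a RefSeq gene start (GRCh38.p14) are given for the gene with the largest rise, for the gene with the largest fall past the test and for the HIF factor that rose most. Windows with more than 5 bases inside an annotated exon are not printed. Capitals mark the 5-base core of hypoxia response elements, written ACGTG or GCGTG and searched on both strands; where ACGTG lies on both strands the letters overlap as CACGTG, which is also an E-box.
HK2, chr2:74834920-74835169, plus strand: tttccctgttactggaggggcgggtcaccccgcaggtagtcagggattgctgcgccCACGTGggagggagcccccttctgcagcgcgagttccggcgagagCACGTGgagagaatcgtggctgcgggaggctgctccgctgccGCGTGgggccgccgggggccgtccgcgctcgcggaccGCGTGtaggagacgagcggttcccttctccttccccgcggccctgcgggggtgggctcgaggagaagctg
HIF1A, chr14:61695263-61695512, plus strand: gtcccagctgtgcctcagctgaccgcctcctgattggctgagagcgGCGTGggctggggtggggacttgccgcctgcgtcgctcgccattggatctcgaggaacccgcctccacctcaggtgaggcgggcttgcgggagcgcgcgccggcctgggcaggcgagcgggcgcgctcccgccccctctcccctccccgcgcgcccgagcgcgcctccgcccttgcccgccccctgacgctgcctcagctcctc
DDIT4, chr10:72273674-72273923, plus strand: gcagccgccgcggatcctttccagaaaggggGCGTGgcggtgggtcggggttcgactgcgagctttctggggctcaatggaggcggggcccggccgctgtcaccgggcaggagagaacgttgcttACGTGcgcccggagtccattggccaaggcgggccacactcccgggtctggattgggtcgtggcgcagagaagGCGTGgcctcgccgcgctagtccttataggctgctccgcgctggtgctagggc

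The printed HK2 window held 6 core matches, 4 of them from 2 copies of CACGTG, the DDIT4 window 3 and the HIF1A window 1. The printed HK2 window lies inside the annotated gene, which begins at 74833981. Another HK2 window, chr2:74833877-74834126, lies in annotated exon and was not printed. It held 3 core matches and 0 copies of CACGTG. Another HIF1A window, also not printed, held 0 core matches. So the gene that fell most and the gene that rose most both had cores in the printed window. A core of either form is common, in 55.0% of the windows of tested genes and 61.8% of those of the genes described here. RefSeq gave 68 windows for 38 of the 45 genes; SLC2A3, PFKFB2, SLC16A1, VHL, VEGFA, BNIP3L and NDRG1 were not matched. ACGTG was in 38.2% of these windows, in 22.2% of the 14448 windows of tested genes and in 18.5% of all 35116 RefSeq windows. GCGTG was in 36.8% of these windows, 43.5% of those of tested genes and 32.2% of all. Counted per gene, 12 of 19 genes that rose had ACGTG in at least 1 window, as had 4 of 6 that fell and 6 of 11 that did not pass. Among the 9870 tested genes with a window the share was 28.8%, and genes differ in their number of windows. Windows of 1 gene overlap or share sequence, many promoters lie elsewhere, and a match is a run of letters, not a bound site.

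At the entry of the pathway, SLC2A1, which encodes the GLUT1 glucose transporter, had 174, 181 and 172 CPM in knockout libraries, against 126, 130 and 129 CPM in control libraries. The groups did not overlap, and it rose 1.37-fold (log2 0.45, SE 0.05, edgeR adjusted p = 1.11e-09). SLC2A3, the high-affinity GLUT3 transporter, had 20 counts over the knockout libraries and 13 over the control libraries, overlapped between groups and was too low to test.

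The hexokinases moved in opposite directions. HK2, the inducible hexokinase, lies on chromosome 2 (74833981 to 74893359, plus strand, GRCh38). It had 81.3, 86.0 and 86.1 CPM in knockout libraries, against 33.8, 30.6 and 31.5 CPM in control libraries. It rose 2.65-fold (log2 1.40, SE 0.07, edgeR adjusted p = 3.54e-19), the largest rise among the 42 tested genes. HK1, the widely expressed hexokinase (chromosome 10, 69269984 to 69401884, plus strand), had 76.3, 71.4 and 71.5 CPM in knockout libraries, against 92.7, 92.6 and 95.6 CPM in control libraries. It fell, with every knockout library below every control library (log2 -0.36, SE 0.06, edgeR adjusted p = 3.67e-06). Centred on its 50 nearest genes, HK1 no longer passed (log2 -0.13, edgeR adjusted p = 0.0751). Per kilobase of exon, the 2 hexokinase messages together came to 25.5 ± 0.0281 CPM per kb in knockout cells and 20.1 ± 0.348 CPM per kb in control cells (SD, n = 3 each). HK2 made up 52.5, 55.6 and 55.6% of that sum in knockout libraries, against 27.5, 25.5 and 25.5% in control libraries. The share differed by 28.4 percentage points (exact permutation test, two-sided, p = 0.1, the smallest that 3 against 3 libraries allow). By the union of exons (6296 bases for HK1, 6064 for HK2), HK2 was thus the larger message in knockout cells and HK1 in control cells. With the longest transcript as length (3998 bases for HK1, 5772 for HK2), the HK2 share still rose, by 25.3 percentage points (exact permutation p = 0.1). Which of the 2 messages is larger in knockout cells depends on the length used.

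**Figure D2:**
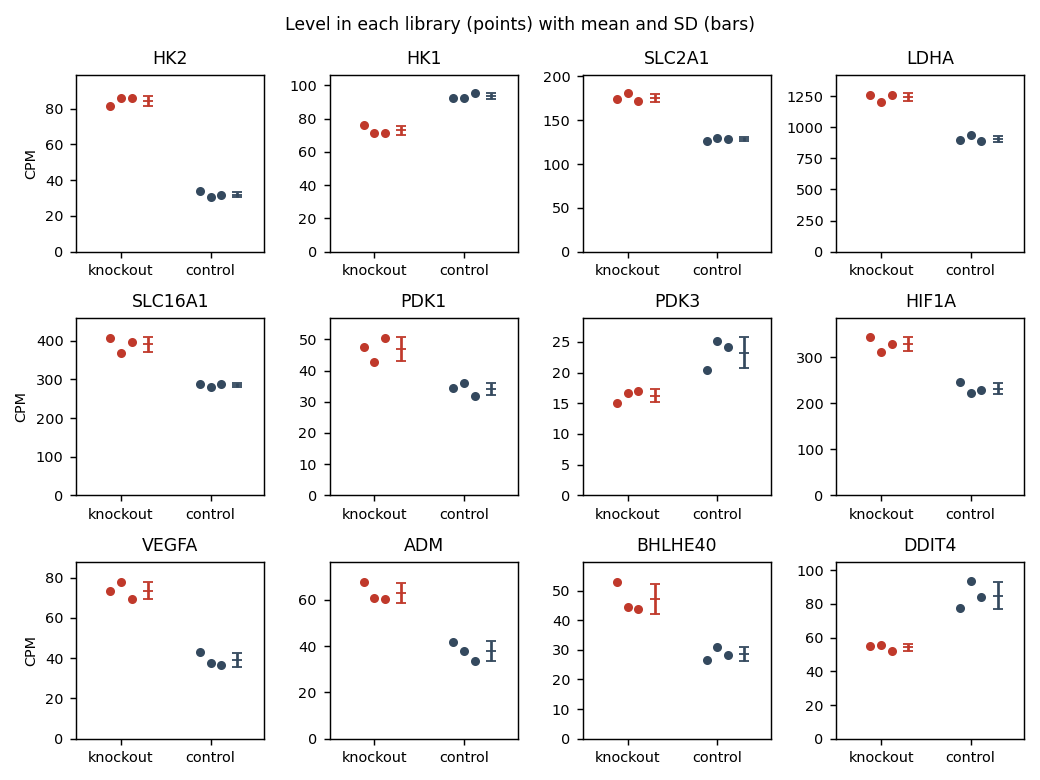
CPM of 12 genes in each knockout library (left in each panel) and each control library (right), with mean and SD beside the points. HK2 sits between 81.3 and 86.1 CPM in knockout libraries and between 30.6 and 33.8 CPM in control libraries, while HK1, PDK3 and DDIT4 run the other way.

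The middle of the pathway rose by less, and not at every step. Of the phosphofructokinase genes, which commit sugar to glycolysis, PFKP had 328, 349 and 314 CPM in knockout libraries, against 294, 280 and 277 CPM in control libraries (log2 0.22, SE 0.05, edgeR adjusted p = 0.000247). The liver form PFKL (log2 -0.06) and the muscle form PFKM (0.13) did not pass; PFKM passed with no filter on low counts and without control replicate 3 or knockout replicate 3 (log2 0.13, 0.19 and 0.19). GPI, the isomerase between the hexokinase and phosphofructokinase steps, had 340 ± 13.8 CPM in knockout cells and 338 ± 7.11 CPM in control cells (adjusted p = 0.892 by edgeR). ALDOA, the main aldolase here, had 910, 933 and 928 CPM in knockout libraries, against 760, 756 and 747 CPM in control libraries, a clear separation (log2 0.29, SE 0.04, edgeR adjusted p = 7.30e-07). ALDOC, the brain-type aldolase, had a log2 fold change of -0.24 (edgeR adjusted p = 0.0505). It passed as lower with upper-quartile scaling, with no filter or a 1 CPM filter, with the replicate block (adjusted p = 0.0330) and without control replicate 1 or knockout replicate 2 (log2 -0.31 and -0.33). Centred on its 50 nearest genes ALDOC had the other sign (0.06, adjusted p = 0.646). TPI1, which interconverts the 2 triose phosphates, rose by 0.24 (SE 0.05), with 1037 ± 57.1 CPM in knockout cells and 881 ± 11.3 CPM in control cells.

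The enzymes that set fructose 2,6-bisphosphate, the allosteric activator of phosphofructokinase, did not move as 1 group. PFKFB3, the strongly kinase-leaning form, had 63.7, 64.2 and 67.1 CPM in knockout libraries, against 73.7, 73.8 and 76.9 CPM in control libraries. It fell (log2 -0.20, SE 0.06, edgeR adjusted p = 0.00632), but no longer passed when centred on its 50 nearest genes (log2 -0.05, edgeR adjusted p = 0.553). PFKFB4 had 8.56, 8.35 and 7.78 CPM in knockout libraries, against 9.28, 11.8 and 11.5 CPM in control libraries, and fell by 0.40 on the log2 scale (edgeR adjusted p = 0.0206). Both are known as hypoxia-induced genes in other cells. PFKFB2 rose by 0.14 (adjusted p = 0.0334). The PFKFB2 call was lost with DESeq2 (adjusted p = 0.0557), with upper-quartile scaling and without control replicate 1, 2 or 3 or knockout replicate 1 (log2 0.14, 0.12, 0.15 and 0.09). The PFKFB4 call was lost with DESeq2 and without control replicate 2 or 3 or knockout replicate 3 (log2 -0.33, -0.36 and -0.36).

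In the lower pathway GAPDH, ENO1, PKM and PGK1 rose together by small steps. GAPDH, often used as a reference message, had 4080, 4027 and 3795 CPM in knockout libraries, against 3408, 3345 and 3386 CPM in control libraries (log2 0.23, SE 0.04, edgeR adjusted p = 3.24e-05). Every knockout library lay above every control library. PKM, which encodes pyruvate kinase M, had 3479, 3592 and 3239 CPM in knockout libraries, against 2776, 2678 and 2757 CPM in control libraries (log2 0.33, SE 0.05, edgeR adjusted p = 1.40e-07). Gene-level counts do not separate its M1 and M2 splice forms. ENO1, the main enolase, averaged 2176 ± 99.8 CPM in knockout cells and 1844 ± 57.2 CPM in control cells (log2 0.24), and PGK1, phosphoglycerate kinase, 880 ± 41.3 CPM in knockout cells and 766 ± 9.56 CPM in control cells (log2 0.20). PGAM1, phosphoglycerate mutase, differed from that row, with 791, 767 and 758 CPM in knockout libraries, against 793, 767 and 781 CPM in control libraries, which overlap (log2 -0.02, edgeR adjusted p = 0.801). The neuronal enolase ENO2 averaged 1.19 ± 0.591 CPM in knockout and 1.57 ± 0.143 CPM in control cells and did not pass.

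Read per kilobase of exon and summed over paralogs, 11 of 14 steps had every knockout library above every control library, as had 27.5% of all tested genes taken singly. The overlapping steps were glucose-6-phosphate isomerase, phosphoglycerate mutase and pyruvate dehydrogenase kinase. The largest ratios of knockout over control were 1.37 for glucose entry, 1.36 for lactate transport, 1.27 for hexokinase, 1.26 for pyruvate kinase and 1.25 for lactate dehydrogenase. The message per length was highest for GAPDH, at 1331 ± 50.8 CPM per kb in knockout and 1134 ± 10.8 CPM per kb in control cells. Enolase followed (413 ± 18.8 CPM per kb in knockout, 350 ± 10.9 in control cells), close to pyruvate kinase (401 ± 21.0 in knockout, 319 ± 6 in control cells) and triose-phosphate isomerase (384 ± 21.1 in knockout, 326 ± 4.17 in control cells). In knockout cells these last 3 lie within about 1 SD of their neighbour in that order. The order, and the ratios of steps summed over paralogs, rest on the union of exons and were not computed with another length. PKM has 8571 bases of union exon and 3016 in its longest transcript, against 5276 and 2548 for ENO1. The order of pyruvate kinase and enolase thus depends on the length used. Hexokinase, at 25.5 CPM per kb in knockout and 20.1 in control cells, stood second to last, above the pyruvate dehydrogenase kinases. All 26 genes of transport, glycolysis and pyruvate took 1.63 ± 0.0372% of counts in knockout libraries and 1.42 ± 0.0120% in control libraries.

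**Figure D3:**
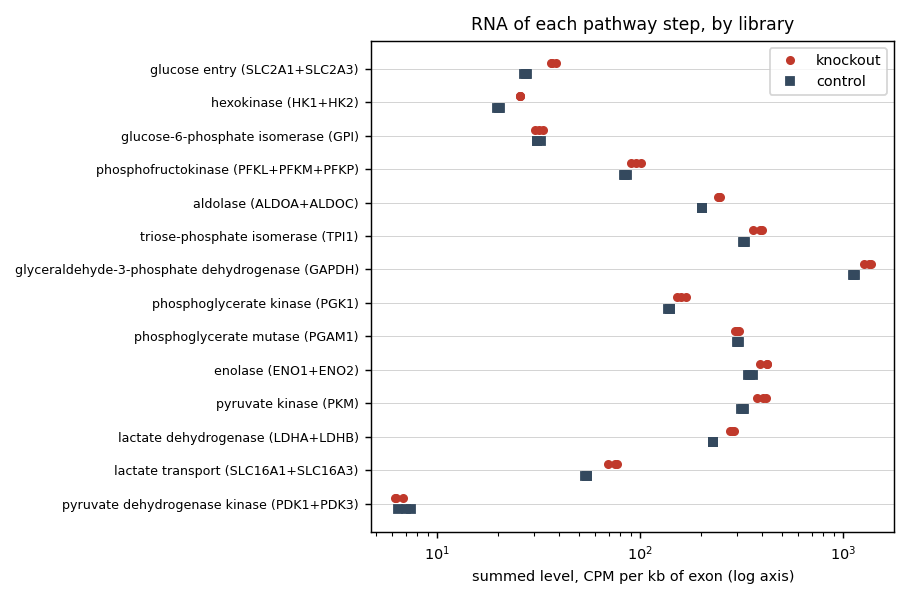
Summed level of each pathway step in CPM per kb of exon (log axis), with 3 knockout points above and 3 control points below each line. In 11 of 14 steps the knockout points all lie to the right; GPI, PGAM1 and the PDK1 and PDK3 sum overlap.

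At the fate of pyruvate, LDHA and SLC16A1 rose, while LDHB and SLC16A3 did not pass. LDHA, the lactate dehydrogenase subunit that favours lactate formation, had 1261, 1203 and 1261 CPM in knockout libraries, against 901, 935 and 890 CPM in control libraries. The groups were far apart relative to their spread (1.37-fold, log2 0.45, SE 0.04, edgeR adjusted p = 9.42e-11). LDHB, the other subunit of the tetramer, had 265, 253 and 239 CPM in knockout libraries, against 249, 233 and 251 CPM in control libraries, and did not pass (log2 0.05). LDHB made up 29.7 ± 1.26% of the 2 messages per length in knockout cells and 35.9 ± 1.51% in control cells, without overlap (exact permutation p = 0.1, the smallest possible). SLC16A1, the lactate transporter MCT1, had 407, 369 and 397 CPM in knockout libraries, against 288, 280 and 288 CPM in control libraries, and rose 1.37-fold (log2 0.45, SE 0.05, edgeR adjusted p = 4.12e-10). SLC16A3, the hypoxia-induced exporter MCT4, was low, with 3.55, 3.72 and 3.06 CPM in knockout libraries, against 5.18, 4.40 and 2.84 CPM in control libraries. Its groups overlap and it did not pass (log2 -0.27, edgeR adjusted p = 0.367).

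The pyruvate dehydrogenase kinases, which shut pyruvate out of the citric acid cycle, moved in opposite directions. PDK1, a known HIF target, had 47.7, 42.8 and 50.3 CPM in knockout libraries, against 34.3, 35.9 and 32.0 CPM in control libraries, and rose (log2 0.46, SE 0.08, edgeR adjusted p = 9.94e-06). PDK3 had 15, 16.6 and 17 CPM in knockout libraries, against 20.4, 25.1 and 24.2 CPM in control libraries, and fell (log2 -0.52, SE 0.11, edgeR adjusted p = 8.42e-05). PDK3 was 50.9 ± 2.59% of the summed message per length in knockout cells and 67.1 ± 2.67% in control cells (exact permutation p = 0.1). The sum itself, 6.42 ± 0.331 CPM per kb in knockout and 6.98 ± 0.525 in control cells, overlapped.

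**Figure D4:**
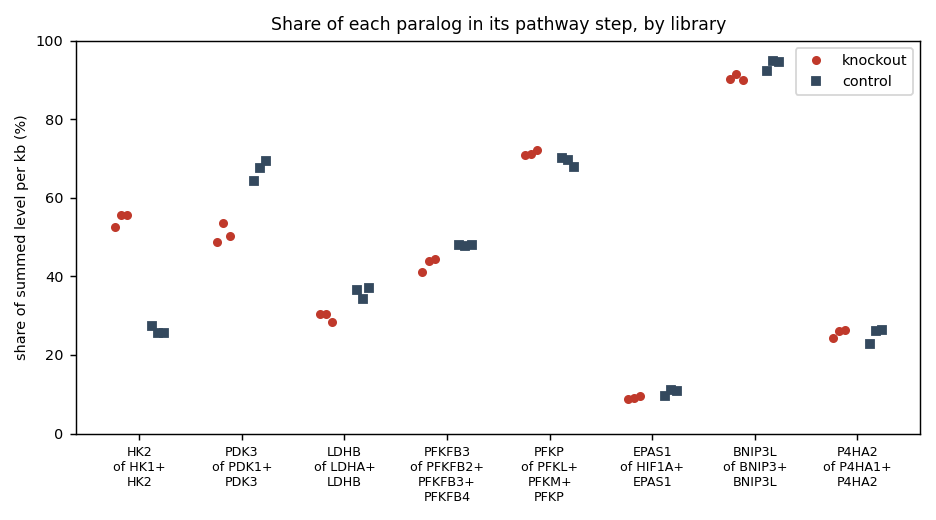
Share of 1 paralog in the summed level per kb of its step, in percent, for each knockout library (circles, left) and control library (squares, right). HK2 lies at 52.5 to 55.6% in knockout and 25.5 to 27.5% in control libraries; P4HA2 overlaps.

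Messages of both HIF alpha subunits rose. HIF1A had 343, 312 and 329 CPM in knockout libraries, against 245, 221 and 229 CPM in control libraries, without overlap (1.42-fold, log2 0.50, SE 0.05, edgeR adjusted p = 1.05e-10). EPAS1, which encodes HIF-2 alpha, had 47.4, 44.5 and 48.9 CPM in knockout libraries, against 36.9, 39.1 and 38.6 CPM in control libraries (log2 0.29, SE 0.08, edgeR adjusted p = 0.00126). EPAS1 was 9.18 ± 0.313% of the 2 messages per length in knockout cells and 10.5 ± 0.763% in control cells, so HIF1A was the larger message in both. On the removal side, EGLN1, the main oxygen-sensing prolyl hydroxylase, had 57.4, 49.7 and 55.6 CPM in knockout libraries, against 60.3, 58.3 and 72.2 CPM in control libraries. It fell by 0.23 on the log2 scale (edgeR adjusted p = 0.0158), a call lost with DESeq2 (adjusted p = 0.0563) and without control replicate 3 or knockout replicate 2 (log2 -0.13 and -0.16). VHL, the ubiquitin ligase subunit that binds hydroxylated HIF, lay below in every knockout library but did not pass (log2 -0.13, edgeR adjusted p = 0.193). EGLN3, a hydroxylase that hypoxia normally induces, averaged 0.930 ± 0.280 CPM in knockout and 1.38 ± 0.247 CPM in control cells, overlapped and did not pass.

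Among the 14 hypoxia-induced genes of the list, 12 could be tested. Of these, 8 rose, 1 fell and 3 did not pass, where 24.6% of all tested genes rose and 25.8% fell. Of 39 other tested hypoxia-induced genes, described below, 20.5% rose and 28.2% fell. Both sets were chosen with earlier results of these data known. VEGFA, the main angiogenic growth factor of the epidermis, had 73.4, 77.8 and 69.3 CPM in knockout libraries, against 42.8, 37.8 and 36.5 CPM in control libraries (1.88-fold, log2 0.91, SE 0.07, edgeR adjusted p = 2.76e-13). ADM, the vasodilator peptide adrenomedullin, had 67.9, 60.7 and 60.3 CPM in knockout libraries, against 42.0, 38.1 and 33.5 CPM in control libraries (1.66-fold, log2 0.73, edgeR adjusted p = 7.61e-10). BHLHE40, a repressor that binds E-boxes, had 53.0, 44.6 and 43.8 CPM in knockout libraries, against 26.5, 31.0 and 28.3 CPM in control libraries (1.64-fold, log2 0.72). In each of these 3 genes every knockout library lay above every control library. BNIP3, a mitochondrial receptor for autophagy, had 10.5, 6.99 and 9.36 CPM in knockout libraries, against 6.33, 4.34 and 4.71 CPM in control libraries (1.74-fold, log2 0.80, SE 0.19, edgeR adjusted p = 0.000482). Its relative BNIP3L did not pass (log2 0.07).

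The other hypoxia-induced genes were at low levels or changed less. ANKRD37, a small ankyrin protein gene with a strong HIF response in other cells, had 25, 38 and 20 counts in knockout libraries, against 12, 25 and 11 in control libraries (2.08-fold, log2 1.06, SE 0.35, edgeR adjusted p = 0.0113). Scaled for depth its groups lay apart, at 1.75 to 2.89 CPM in knockout and 0.864 to 1.45 CPM in control libraries. Its call was lost with DESeq2 (adjusted p = 0.0509) and without control replicate 1 or 3 or knockout replicate 2 (log2 0.92, 0.95 and 0.84). NDRG1, a differentiation- and stress-linked protein gene, averaged 35.1 ± 3.41 CPM in knockout and 27.2 ± 3.18 CPM in control cells (log2 0.37, edgeR adjusted p = 0.00115). MXI1, a MYC antagonist, rose by 0.32 (adjusted p = 0.0110, lost without control replicate 3 or knockout replicate 1, log2 0.25 in each). The collagen prolyl hydroxylase gene P4HA2 rose by 0.19 (adjusted p = 0.0280), a call lost with DESeq2, with upper-quartile scaling and without control replicate 1 or 2 or knockout replicate 2 (log2 0.13, 0.19 and 0.17). P4HA1 (0.15) and the histone demethylase gene KDM3A (0.05) did not pass; P4HA1 passed without knockout replicate 3 (log2 0.19).

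Within the hypoxia-induced group, DDIT4 was the exception in direction, as the only gene that fell past the test. It encodes REDD1, an mTOR complex inhibitor induced by hypoxia, DNA damage and glucocorticoids. It had 55.1, 55.8 and 52.0 CPM in knockout libraries, against 77.6, 93.5 and 83.9 CPM in control libraries (log2 -0.65, SE 0.07, edgeR adjusted p = 4.02e-10). Every knockout library was below every control library, opposite to VEGFA and ADM.

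The carbonic anhydrases sat near the detection limit. CA9, a membrane enzyme that is among the most HIF-dependent genes known, had 8, 12 and 12 counts in knockout libraries, against 0, 4 and 1 in control libraries, without overlap. It did not enter the main test, and passed in the edgeR fit with no filter on low counts (log2 2.88, adjusted p = 0.00141). It shares exon sequence with ARHGEF39 on the opposite strand (1957 counts over 6 libraries), and the strand setting of the counting is not given, so its few reads are uncertain. CA12 had 6 counts over the knockout libraries and 9 over the control libraries and could not be compared at this depth.

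Other members share sequence with neighbours too. ANKRD37 overlaps exons of UFSP2, PFKM those of SENP1, PFKFB2 those of YOD1 and SLC16A3 those of CSNK1D, each on the opposite strand, while ALDOA and PGK1 overlap genes on their own strand that held 3003 and 2957 counts. Of the 45 genes, 16 have annotated pseudogenes, 147 in all, and 0 of these had a row in the table, so reads from them would be dropped or counted to the parent gene.

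Position along the chromosomes moved with some of these values. Of the 45 genes, 8 lie on chromosome 10, where the median log2 fold change of all 477 tested genes was -0.20, with 48 higher and 218 lower. For these 8 the median of the 50 nearest tested genes was -0.25 to -0.15. DDIT4 (-0.65), HK1 (-0.36) and PFKFB3 (-0.20) fell there, BNIP3 (0.80), MXI1 (0.32) and PFKP (0.22) rose, and PGAM1 and P4HA1 did not pass. Elsewhere 20 of 34 tested genes (58.8%) rose and 3 (8.82%) fell, against 24.6% and 25.8% of all tested genes on any chromosome. When each gene was centred on its 50 nearest genes, DDIT4 kept its fall (log2 -0.44, edgeR adjusted p = 4.32e-06) and HK2 its rise (1.31), but HK1 (-0.13, adjusted p = 0.0751), PFKFB3 (-0.05, adjusted p = 0.553) and EGLN1 (0.00, on chromosome 1, adjusted p = 0.996) no longer passed. Under the same centring PGAM1 (0.21, adjusted p = 0.000383) and P4HA1 (0.40, adjusted p = 2.02e-05) passed as higher, VHL (-0.26) passed as lower and P4HA2 (0.16) did not pass. The part of local gene position, or of DNA copy number, in these differences was not tested.

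**Figure D5:**
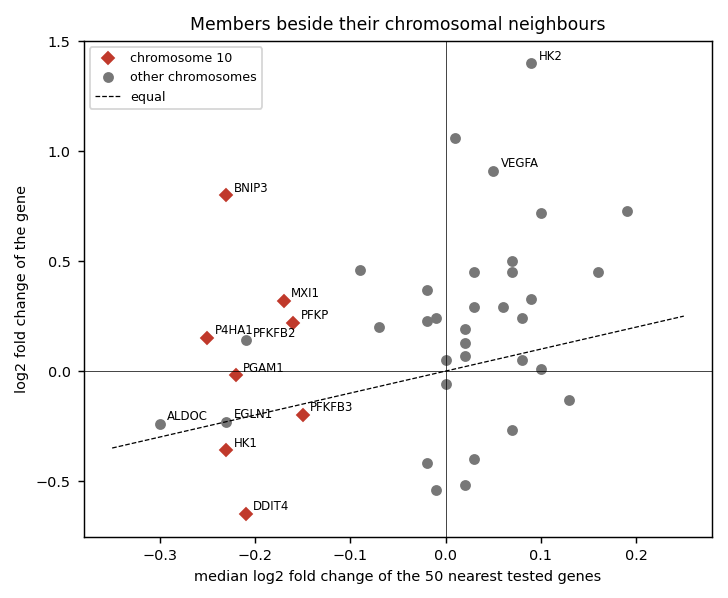
Log2 fold change of each tested gene (vertical axis) against the median log2 fold change of its 50 nearest tested genes (horizontal axis); diamonds are the 8 genes on chromosome 10 and the dashed line marks equality. EGLN1 and PFKFB3 lie near the line, while HK2 and BNIP3 lie far above it and DDIT4 below.

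Another 116 genes of the same pathways, listed from general knowledge but with earlier results of these data known, were compared in the same fit. Of the 99 with enough reads, 26.3% (26) rose and 24.2% (24) fell, against 24.6% and 25.8% of all tested genes, and their median was 0.00. Of 39 other hypoxia-induced genes, 8 were higher and 11 lower past the test. MAFF (log2 1.43), TFRC (0.58) and the oxidoreductase gene ERO1A (0.56) rose, while the collagen lysyl hydroxylase gene PLOD2 fell to 31.5 ± 3.15 CPM in knockout cells, against 75.8 ± 2.26 CPM in control cells (log2 -1.27, SE 0.07, edgeR adjusted p = 5.28e-17), and WSB1 (-0.66) fell as well. Among 16 tested HIF pathway regulators 5 rose and 3 fell. ARNT, the partner that both HIF alpha subunits need, had 37.6, 36.8 and 36.7 CPM in knockout libraries, against 60.8, 63.7 and 63.1 CPM in control libraries (log2 -0.76, SE 0.07, edgeR adjusted p = 1.98e-11), and its 50 nearest genes on chromosome 1 had a median of -0.37. HIF1AN, the asparagine hydroxylase that blocks HIF coactivators, changed by -0.46 and MYC by 0.89.

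Among the other glycolysis genes 5 of 11 tested rose and 2 fell, against 24.6% and 25.8% of all tested genes. The largest were ARRDC4, with 82.5, 64.9 and 73.2 CPM in knockout libraries, against 19.5, 15.2 and 18.4 CPM in control libraries (4.17-fold, log2 2.06, SE 0.10, edgeR adjusted p = 3.49e-15), and TXNIP, with 213, 190 and 180 CPM in knockout libraries, against 69.8, 75.7 and 77.4 CPM in control libraries (2.61-fold, log2 1.39, SE 0.06, edgeR adjusted p = 4.00e-19). Both encode arrestin-fold proteins that limit glucose uptake and are induced by glucose-6-phosphate through MondoA; the gene of that factor, MLXIP, did not pass (log2 0.12). SLC2A6 rose by 0.72, and the lactate and pyruvate transporter gene SLC16A7 fell by 0.44.

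In the branches that leave glycolysis, 6 of 21 tested genes (28.6%) rose and 5 (23.8%) fell, near the 24.6% and 25.8% of all tested genes. PYGB, a glycogen phosphorylase, rose by 0.59. FBP1, the gluconeogenic enzyme that reverses phosphofructokinase, had 3.80, 6.08 and 6.56 CPM in knockout libraries, against 13.7, 15.2 and 17 CPM in control libraries (log2 -1.48, SE 0.16, edgeR adjusted p = 1.41e-09). UGDH (-0.52), AKR1B1 (-0.41) and PGM1 (-0.35) fell too. Of 12 tested genes of pyruvate entry into mitochondria 2 (16.7%) rose and 3 (25%) fell. MPC2, a subunit of the mitochondrial pyruvate carrier, had 54.6, 53.4 and 45.8 CPM in knockout libraries, against 81.8, 82.7 and 82.4 CPM in control libraries (log2 -0.68, edgeR adjusted p = 7.63e-11; its 50 nearest genes on chromosome 1 had a median of -0.34). PDK4 fell by 1.97 on the log2 scale at a low level (0.396 ± 0.340 CPM in knockout and 1.55 ± 0.470 CPM in control cells), whereas PC, pyruvate carboxylase, rose by 0.38.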

How the data were processed

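Total-RNA libraries from 6 HaCaT samples were sequenced, 3 knockout and 3 control. The authors deposited whole-number read counts for each gene, on build GRCh38 per the submitters' processing notes. The kit is stranded per the labels' protocols; no source used here names the aligner, the counter or the strand setting. Nearly all counts lie in protein-coding genes. Low genes were removed with filterByExpr (at least 10 counts, 15 in total), libraries were scaled by TMM, and groups were compared with edgeR 4.0.16 (robust quasi-likelihood F test, two-sided, R 4.3.3), without a block and with Benjamini-Hochberg adjustment over 12293 genes. The SE was taken as |log2 fold change| divided by the root of F. In a simulation over 12293 genes, the test found 56% of genes altered 1.25-fold and 98% of genes altered 4-fold, and called 12 unaltered genes. Far fewer genes were altered in the simulation than passed in the data, so these shares need not hold for the data.

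CPM per kb uses the union of exons in GENCODE release 29. Shares of paralogs were also computed with the longest transcript as length. No libraries were duplicates: within groups the chi-square of counts over its degrees of freedom was 2.65 to 4.49. All 45 genes were to be named, with up to 6 per further list by smallest adjusted p. Genes and lists were chosen with earlier results of these data known. Alternatives were DESeq2 1.42.0, limma-voom (limma 3.58.1), other scalings and filters, a replicate block, leaving out each library, and centring on the 50 nearest genes. Metabolites, protein and DNA were not analysed here. Some genes of the further lists are not reported here.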

Additional observations from a re-analysis of the deposited data

How the results depend on the processing

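Against 23 genes of the list that rose and 6 that fell, the planned settings other than the fold rule gave 21 to 25 and 4 to 7: DESeq2 gave 21 and 4, upper-quartile scaling 21 and 7, limma-voom 23 and 6, and centring on the 50 nearest genes 24 and 4. Leaving out 1 library gave 21 to 25 and 4 to 7. Asking for a change of at least 1.5-fold as well left 6 and 1, by construction. The labels do not say that libraries sharing a number are paired, so the design was treated as unpaired. Deviations of libraries that share a number correlated at 0.015, -0.089 and -0.014. Adding the replicate block gave 23 higher and 7 lower. Of 42 tested genes, 25 had the same sign and the same call in each setting tried. Values that changed sign belonged to genes that did not pass, except EGLN1 under centring (0.00): GPI (-0.02 with upper-quartile scaling, -0.09 centred, -0.02 to 0.04 without 1 library), PFKL (-0.10 to 0.01 without 1 library), ALDOC (0.06 centred), PGAM1 (0.21 centred, 0.00 without knockout replicate 3), LDHB (-0.03 centred) and BNIP3L (-0.02 to 0.16 without 1 library). The difference in the share of P4HA2 ranged from -0.627 to 1.13 percentage points and that of SLC2A3 from -0.0183 to 0.133 when 1 library was left out. Upper-quartile scaling put 43.4% of all calls on the higher side, against 48.8%. For SDR42E1 the log2 fold change was -1.22 to -1.12 without 1 library. Centred on its 50 nearest genes, SDR42E1 had a smaller fall (log2 -0.57, edgeR adjusted p = 2.34e-06), against -1.16 in the main fit. The causes were not tested. Depth limits SLC2A3, CA9, CA12, ENO2 and EGLN3, each with few reads per library.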
